A study of Drosophila melanogaster with 30 samples.

Results

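Genes of the fast transcriptional response were followed here in whole flies exposed to cold and heat, namely Hr38, sr (stripe), kay (kayak), Jra (Jun-related antigen), puc (puckered) and Atf3. They were chosen by name, as activity-induced genes and as genes of the JNK pathway, and all 6 of 6 symbols matched a FlyBase identifier among the 17807 genes of the counts. The flies were adult Canton S females, a wild-type laboratory strain, reared and kept at 25°C, and each pool held 6 whole flies that were sealed in a glass tube. The bath was changed at 0.25°C/min to 4°C, 10°C, 34°C or 37°C, while the control pools stayed at 25°C. Each temperature had 3 libraries of polyA-selected RNA (polyA+) and 3 of rRNA-depleted RNA (rRNA−), so that 15 libraries of each type, 30 in all, were compared. At each temperature, a polyA+ and an rRNA− library that share a number are treated as 1 pool, a pairing that rests on the numbers alone and is not stated outright in the sources used here. If the bath started at 25°C, the change alone took 84 min to 4°C, 60 min to 10°C, 36 min to 34°C and 48 min to 37°C. The sample records give a further hold of 5 min at 34°C and 37°C and of 0 min at 4°C and 10°C, whereas the study's methods give the hold for 4°C and 37°C. All flies, controls included, were anesthetized with CO2 before freezing, and the ages of the flies are not given in the sources used here.

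Immediate early genes are transcribed within minutes of a stimulus from factors that are already in the cell, and their transcripts are short-lived. In the JNK pathway, a cascade of stress-activated kinases ends at the kinase basket, which phosphorylates Jun. Jun and Fos proteins pair to form AP-1, which binds DNA and induces target genes, among them a phosphatase that switches the kinase off again. Jra encodes the fly Jun and kay the fly Fos. Atf3 encodes another basic leucine zipper factor, which can pair with Jun. The phosphatase that acts on basket is encoded by puc, whose transcript is widely used as a readout of JNK activity in fly tissues. Hr38 is the fly member of the NR4A nuclear receptors and sr the fly member of the Egr zinc finger factors. Both are induced by activity in neurons, and sr also directs the differentiation of tendon cells.

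None of the 6 genes passed the test for a change at any temperature. Differential expression was tested with edgeR's quasi-likelihood test within each library type, and a call needed both a fold change of at least 2 and an adjusted p (Benjamini-Hochberg) under 0.05. In rRNA− libraries, where all 6 passed the filter on low counts, 0 of 6 were called against 25°C at 4°C, 10°C, 34°C or 37°C. Of all 9718 genes tested there, 0.0103%, 2.11%, 0.823% and 2.56% were called, in the order 4°C, 10°C, 34°C and 37°C. In polyA+ libraries, only kay, Jra and puc passed the filter and 0 of 3 were called. There, 0%, 0%, 0.0864% and 3.92% of 9257 genes were called, in the same order. DESeq2's Wald test with the same thresholds also called 0 members in all 8 comparisons with 25°C. With backgrounds this low, a count of 0 among 6 genes does not set the members apart from other genes.

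At an unadjusted p under 0.05, edgeR gave 0 members for 4°C, kay and Atf3 for 10°C, kay and Jra for 34°C and kay alone for 37°C in rRNA− libraries. The shares of all genes under this looser threshold were 4.11%, 24.7%, 21.8% and 18.5% in that order. In polyA+ libraries 0 of 3 members were under it at each temperature, where the shares of all genes were 0.627%, 6.31%, 7.18% and 26.2% from 4°C to 37°C. The flies did respond to the heat. Hsp68, a heat-induced Hsp70-family chaperone, had 22.8 ± 3.53 CPM (counts per 1000000 counts after TMM scaling, mean ± SD, n = 3) in rRNA− libraries of 25°C. It rose to 2277 ± 234 CPM with exposure to 34°C and to 7808 ± 763 CPM with 37°C (edgeR adjusted p = 2.5e-12 and 2.1e-13). Of 9 heat and cold response genes, 7 were called as higher with 34°C and 9 with 37°C in these libraries, against 4 and 8 in polyA+ libraries. All 9 had a log2 fold change above 0 at 34°C and at 37°C in either library type. At 10°C, Frost (Fst), a gene known from recovery after cold, rose by 3.00 on the log2 scale and the small heat shock gene Hsp27 fell by 1.90 in rRNA− libraries. The call of Fst was lost without replicate 3 of 25°C (3.02, edgeR adjusted p = 0.060), and that of Hsp27 without replicate 1 or 3 of 10°C or replicate 2 or 3 of 25°C (-1.87 to -1.60). At 4°C, 0 of 9 were called (4 at an unadjusted p under 0.05), although the Fst libraries had 6.99 to 13.3 CPM and those of the controls 1.17 to 3.97.

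**Figure D1:**
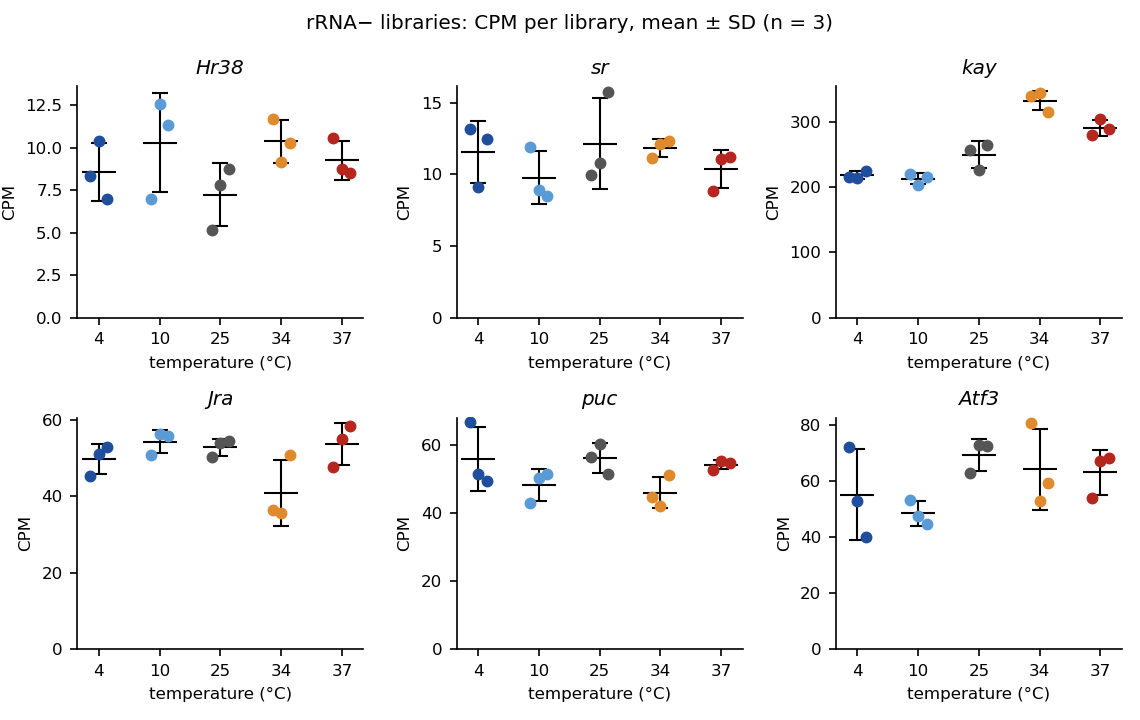
Level of each gene (y axis, CPM, TMM-scaled) at each temperature (x axis) in the rRNA− libraries. Points are the 3 libraries of a group and bars the mean ± SD; the kay libraries at 34°C (316 to 344 CPM) lie above those of every other temperature, and the other genes overlap more between temperatures.

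For kay, the fly Fos, the rRNA− libraries of nearly every temperature lay apart from the rest in CPM. Its 3 rRNA− libraries had 215, 214 and 225 CPM for 4°C, 220.2, 203 and 216 for 10°C, and 258, 227 and 265 for 25°C. For 34°C they had 339, 344 and 316 CPM, and for 37°C 279.7, 304 and 289. The order in CPM was 34°C, 37°C, 25°C and then both cold temperatures, and the libraries of any pair of temperatures did not overlap except those of 4°C and 10°C. The nearest libraries of 4°C and 25°C had 225 and 227 CPM. Of all genes tested, 8.81% (4°C) to 30.7% (10°C) had no overlap with 25°C, and the share was not computed for the other pairs. Against 25°C, the log2 fold change was 0.41 ± 0.10 (SE, 95% interval 0.20 to 0.63, edgeR unadjusted p = 0.00085, adjusted p = 0.056) at 34°C and 0.22 ± 0.10 (adjusted p = 0.25) at 37°C. It was -0.23 ± 0.10 (adjusted p = 0.17) at 10°C and -0.19 ± 0.10 (adjusted p = 1) at 4°C. The value at 34°C corresponded to 1.33-fold, well short of 2-fold. Its adjusted p was 0.04 with RLE scaling and 3.8e-04 with DESeq2's Wald test, and lay between 0.061 and 0.29 when 1 library was left out. The former 2 were the only ones of 15 alternatives under 0.05, and the highest adjusted p among the alternatives lay above the range with 1 library left out.

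The size of this difference depended on how the libraries were made comparable. Without TMM scaling, the log2 fold change of kay was 0.30 for 34°C and 0.08 for 37°C. As TPM (counts divided by exonic length and rescaled to a sum of 1000000), kay had 57.7 ± 2.77 at 34°C against 53.9 ± 3.22 at 25°C (SD, n = 3), a ratio of 1.07, and the libraries overlapped. At 37°C it had 53.0 ± 2.72 TPM, a ratio of 0.982 to the controls, again with overlap. On the same scale kay was at 41.0 ± 0.386 TPM at 10°C, below all 25°C libraries, and at 48.3 ± 4.88 TPM at 4°C, overlapping them. The 37°C libraries also overlapped those of 4°C and 34°C in TPM, so the order given above holds for CPM. The share of all counts on genes with over 5000 bp of exon, a class that includes kay, was 22.8% to 23.9% in the rRNA− controls, 20.7% to 21.7% at 34°C and 18.6% to 19.7% at 37°C, so it was lower in the heat while the CPM of kay was higher. At 10°C the share was 19.0% to 19.7%, lower together with kay and with Atf3, which also has over 5000 bp of exon. Hr38 and sr are in this class too, with log2 fold changes at 10°C of 0.51 and -0.31 (edgeR adjusted p = 0.27 and 0.46). At 4°C the share was 21.9% to 23.2% and overlapped the controls. The part of this share in the values of these genes was not tested.

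**Figure D2:**
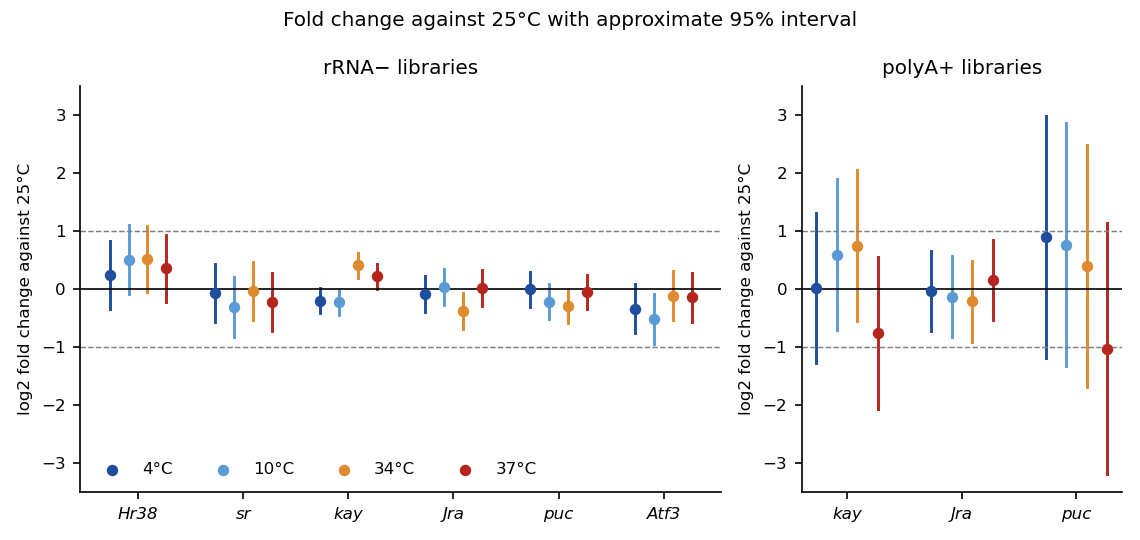
Log2 fold change against 25°C (y axis) of each gene that passed the low-count filter (x axis), for rRNA− libraries on the left and polyA+ libraries on the right, with approximate 95% intervals as lines and 2-fold marked by dashed lines. The intervals in rRNA− libraries stay within 2-fold except the upper ends for Hr38 at 10°C (1.10) and 34°C (1.09), whereas those of puc in polyA+ libraries reach from -3.19 to 2.98.

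Jra, the fly Jun, had another order of levels than its AP-1 partner. In rRNA− libraries of 34°C it had 36.3, 35.5 and 50.7 CPM, against 50.3, 53.9 and 54.4 in the controls and 47.6, 55.0 and 58.5 with 37°C. The first 2 libraries at 34°C were below all libraries of the other temperatures, and replicate 3 overlapped the controls. The log2 fold change at 34°C was -0.37 ± 0.15 (SE, edgeR adjusted p = 0.17), opposite in sign to that of kay, and that of 37°C against 34°C was 0.39 ± 0.15 (adjusted p = 0.29). At 4°C Jra was at 49.8 ± 3.85 CPM and at 10°C at 54.3 ± 3.06 CPM (SD, n = 3), and both groups overlapped the 25°C libraries (52.8 ± 2.26). Across the 15 rRNA− libraries the Pearson correlation of log2 CPM between kay and Jra was -0.54, a description over libraries that share temperature groups. On the TPM scale Jra had 33.9 ± 9.22 at 34°C against 54.2 ± 2.93 at 25°C, and those libraries did not overlap.

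The level of puc, the feedback phosphatase, was not higher than in the controls at any temperature in rRNA− libraries. At 25°C its libraries had 56.6, 60.3 and 51.5 CPM. At 34°C they had 44.9, 42.2 and 51.2 CPM, all below the controls but by a margin of under 1 CPM for the nearest pair. The log2 fold change there was -0.29 ± 0.14 (SE, 95% interval -0.58 to 0.01, edgeR adjusted p = 0.24). With 37°C puc had 54.2 ± 1.33 CPM, with 10°C 48.3 ± 4.60 and with 4°C 56.0 ± 9.54 (SD, n = 3), each overlapping the controls in CPM. The widest group was 4°C, where replicate 1 had 66.9 CPM and the others 51.4 and 49.5. On the TPM scale puc was below all controls (29.9 ± 2.97) at 10°C (22.9 ± 2.96), 34°C (19.8 ± 3.34) and 37°C (24.3 ± 0.763), while 4°C overlapped them. For an increase of puc in rRNA− libraries, the upper ends of the 4 intervals were 0.29, 0.08, 0.01 and 0.24 on the log2 scale, from 4°C to 37°C.

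Atf3 had its lowest mean at 10°C. Its rRNA− libraries had 53.2, 47.6 and 44.5 CPM there and 62.8, 73.0 and 72.4 at 25°C, without overlap. The log2 fold change was -0.52 ± 0.20 (SE, 95% interval -0.95 to -0.08, edgeR adjusted p = 0.13). At 4°C its libraries were spread from 40.0 to 72.3 CPM, the widest range of the gene. At 34°C replicate 1 had 80.6 CPM and the others 52.7 and 59.2, and at 37°C the level was 63.2 ± 7.98 CPM (SD, n = 3), both overlapping the controls in CPM. On the TPM scale Atf3 was below all controls at 37°C, with 12.8 ± 1.66 against 16.7 ± 1.59. The difference at 10°C was below 2-fold at both ends of the interval and did not pass the adjusted threshold. Neuron markers were also lower at 10°C in rRNA− libraries. The summed CPM of 9 neuronal genes was 351 to 464 there against 549.6 to 698 at 25°C, and 9 of 9 had a log2 fold change below 0, with the sodium channel gene para called (-1.02). Among these, elav and nSyb are defining markers and none of the 9 was without counts. At 4°C the sum was 402 to 513 CPM, also below the controls, with 9 of 9 log2 fold changes below 0, 0 called by edgeR and 6 at an unadjusted p under 0.05. In polyA+ libraries 6 of the 9 were tested, and 5 of them at 10°C and 3 at 4°C had a log2 fold change above 0. There, 0 were called, and the medians were 0.32 at 10°C and -0.12 at 4°C. Whether the neuronal share had a part in the levels of Atf3, Hr38 or sr was not tested. In whole flies, fewer cells of a type and less RNA per cell cannot be told apart.

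Hr38 and sr were scarce even in rRNA− libraries, which limits what can be seen. Hr38 had 20 to 47 counts per library and sr 18 to 65. The Hr38 libraries had 5.16, 7.83 and 8.75 CPM at 25°C and 11.7, 9.18 and 10.3 at 34°C, so that all 3 heat libraries were above the controls, the nearest by under 1 CPM. Its log2 fold change was 0.52 ± 0.27 (SE, 95% interval -0.06 to 1.09, edgeR adjusted p = 0.27) at 34°C and 0.51 ± 0.28 (-0.08 to 1.10, adjusted p = 0.27) at 10°C, where replicate 1 had 7.0 CPM and the others 12.6 and 11.4. At 4°C and 37°C the values were 0.24 and 0.36. The 4 values share the same controls, in which Hr38 replicate 1 was the lowest of all 15 libraries. A 2-fold increase was within the interval at 10°C and 34°C, so it was not excluded at this depth. The sr libraries ran from 8.52 to 15.8 CPM over all temperatures, and the controls alone (9.93, 10.8 and 15.8 CPM) spanned most of that range. Its log2 fold changes were -0.06, -0.31, -0.03 and -0.22, from 4°C to 37°C. Every sr group overlapped the 25°C libraries in CPM, whereas in TPM those of 37°C (1.82 ± 0.237) were below them (2.52 ± 0.626).

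Counted over the 6 genes in CPM, the libraries did not overlap those at 25°C for 1 gene at 4°C (kay) and 2 at 10°C (kay and Atf3). At 34°C there were 3 (Hr38, kay and puc) and at 37°C 1 (kay). The share of all 9718 genes without overlap in CPM was 8.81%, 30.7%, 27.9% and 27.8% in the same order. In TPM the genes without overlap were kay, puc and Atf3 at 10°C, and Jra and puc at 34°C. At 37°C they were sr, Jra, puc and Atf3. Each was lower than at 25°C, and at 4°C every gene overlapped. The share of all genes without overlap in TPM was not computed, so these TPM results do not set the members apart from other genes. The median log2 fold change of the 6 genes was -0.07, -0.22, -0.07 and -0.01, beside -0.01, 0.01, -0.06 and -0.05 for all genes tested. Within the pairs of like exposures, 0 of 6 members were called between 37°C and 34°C or between 4°C and 10°C in rRNA− libraries, where 0.175% and 0.0103% of all genes were called. The same held for 0 of 3 in polyA+ libraries, with 0% and 0% of all genes. At an unadjusted p under 0.05, the members were Jra in rRNA− and kay in polyA+ libraries between 37°C and 34°C, and none between 4°C and 10°C, and DESeq2 also called 0.

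Per length of transcript, the 6 genes formed the same broad order in both library types at 25°C. In rRNA− libraries Jra had 54.2 ± 2.93 TPM and kay 53.9 ± 3.22 (SD, n = 3), which did not differ beyond their spread. They were followed by puc with 29.9 ± 2.97, Atf3 with 16.7 ± 1.59, sr with 2.52 ± 0.626 and Hr38 with 1.59 ± 0.411 TPM. Each of these neighbours was apart in all 3 libraries. In polyA+ libraries Jra had 34.7 ± 5.74 TPM, kay 2.95 ± 1.03, puc 2.7 ± 1.64 and Atf3 0.339 ± 0.0492, while sr had 2 to 5 counts and Hr38 0 to 1 counts per library. Kay and puc overlapped there. Jra thus stood above kay by more than 10 TPM in every polyA+ library at 25°C but not in the rRNA− libraries.

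**Figure D3:**
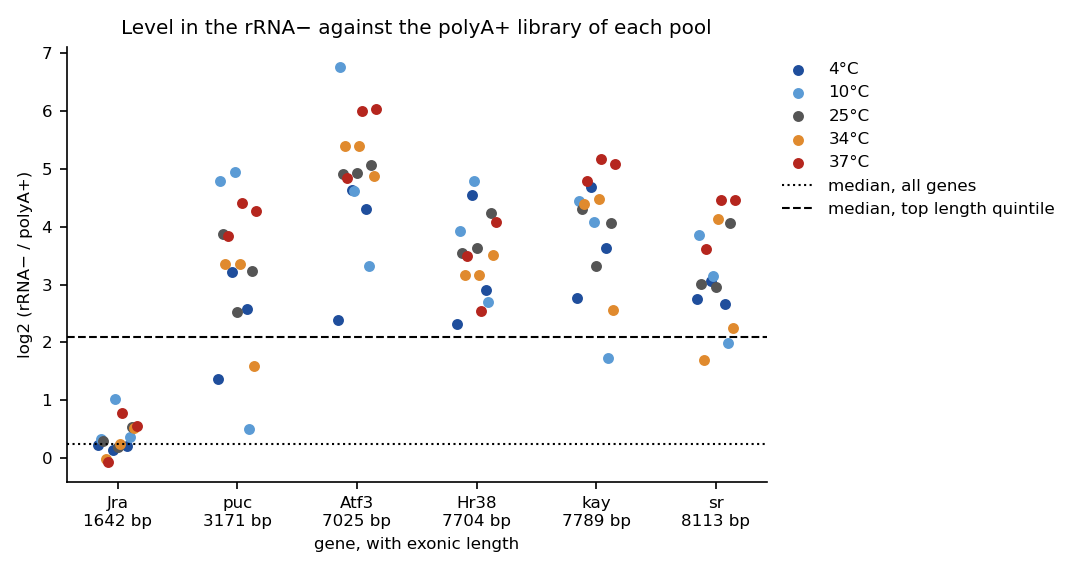
Log2 ratio of the level in the rRNA− library to that in the polyA+ library (y axis, CPM of the library total plus 0.5) for each gene in order of exonic length (x axis), with 1 point per pool coloured by temperature. Dotted and dashed lines give the median of all genes (0.24) and of the top length quintile (2.09); Jra lies near the former and 5 genes lie above 0 in all 15 pools.

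The levels of 5 of the 6 genes differed more between the library types than between any temperatures in rRNA− libraries. Kay had 259 CPM of the library total in rRNA− and 20.2 in polyA+ libraries, a ratio of 12.8. The ratio was 26.4 for Atf3, 20.8 for Hr38, 11.5 for sr and 6.07 for puc. Each of these 5 genes was higher in the rRNA− library in 15 of 15 pools. Jra had 50.5 CPM in rRNA− and 39.5 in polyA+ libraries, a ratio of 1.28, and was higher in 13 of 15 pools. Over the 9984 genes with a length, the median log2 ratio was 0.24, and by quintile of exonic length it ran from -0.51 in the shortest to 2.09 in the longest, which holds genes of over 4147 bp. For these log2 ratios 0.5 CPM was added to both means, which lowers the value of Hr38, with 0 to 5 polyA+ counts per library, more than that of kay. The log2 ratios of Atf3 (4.45), kay (3.65), Hr38 (3.36) and sr (2.99), with 7025, 7789, 7704 and 8113 bp of exon, were above the upper quartile of that longest quintile (2.88). With 3171 bp, puc (2.53) was above the upper quartile of its own quintile (1.35), and Jra (0.35) with 1642 bp was above that of its own (0.13). The library types also differed in the amount of RNA, the sequencer and the length of the original reads, whose parts cannot be told apart, so the ratios are descriptions of the protocols with no test.

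**Figure D4:**
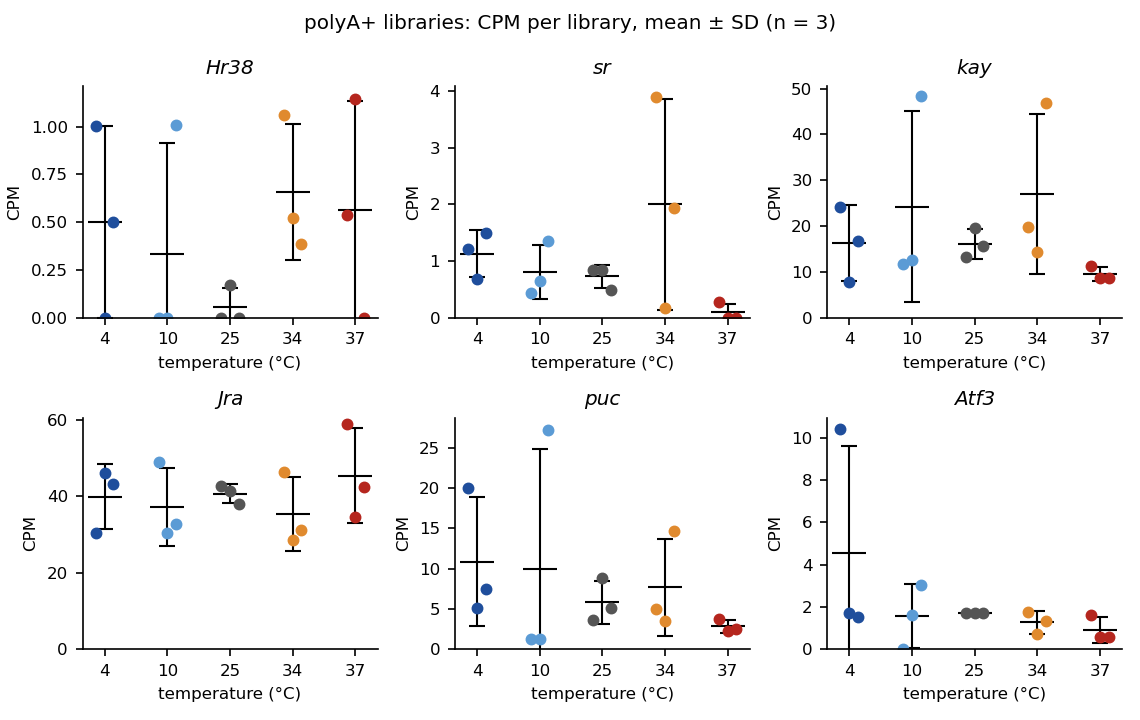
Level of each gene (y axis, CPM, TMM-scaled) at each temperature (x axis) in the polyA+ libraries, with the 3 libraries of a group as points and mean ± SD as bars, which are cut at 0. Single libraries of 4°C, 10°C and 34°C stand high for kay (24.3, 48.3 and 47.0 CPM) and puc (20.04, 27.2 and 14.6 CPM).

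In polyA+ libraries the same genes gave wide intervals. Kay had 24.3, 7.80 and 16.7 CPM for 4°C, 11.7, 12.7 and 48.3 for 10°C, and 13.1, 19.5 and 15.5 for 25°C. It had 19.8, 14.3 and 47.0 CPM for 34°C, and 11.3, 8.58 and 8.60 for 37°C. Replicate 1 of 4°C and replicate 3 of 10°C and 34°C were the 3 highest libraries, and those of 37°C were all below the controls. The log2 fold change of kay was 0.60 (95% interval -0.71 to 1.90) for 10°C, 0.75 (-0.55 to 2.05) for 34°C and -0.75 (-2.07 to 0.56, edgeR adjusted p = 0.42) for 37°C. The median of all genes at 37°C was -0.18, and the share of all genes without overlap was not computed for polyA+ libraries. The puc libraries had 20.04, 5.09 and 7.50 CPM for 4°C, 1.30, 1.30 and 27.2 for 10°C, and 3.601, 8.82 and 5.10 for 25°C. They had 4.95, 3.49 and 14.6 CPM for 34°C, and 3.78, 2.29 and 2.50 for 37°C. The same 3 libraries were the highest, and the groups overlapped the controls at every temperature. Its log2 fold change was 0.90, 0.77, 0.40 and -1.03 from 4°C to 37°C, the last with an interval of -3.19 to 1.13 and an adjusted p of 0.50. Jra was steadier, with a lowest library of 28.5 and a highest of 58.9 CPM over all 15, and its log2 fold changes lay between -0.21 and 0.16.

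**Figure D5:**
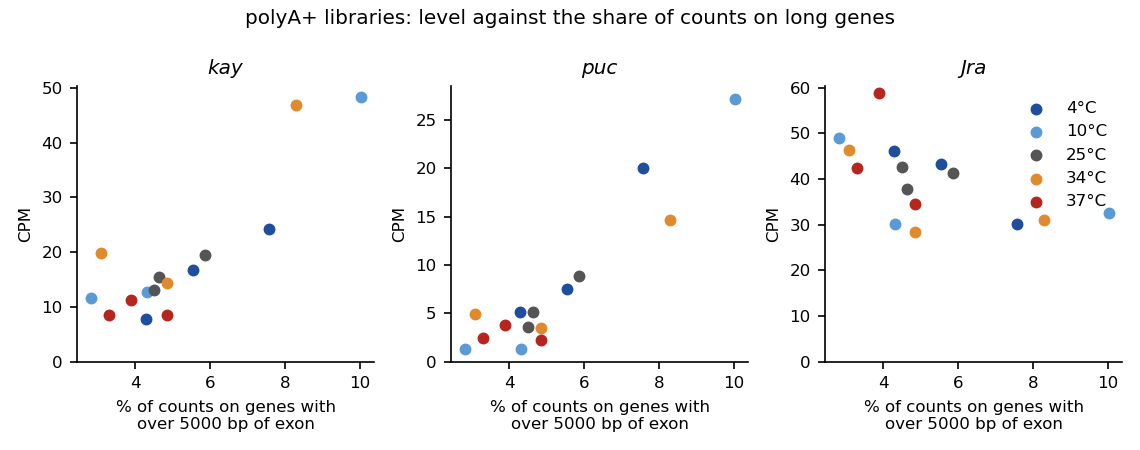
Level of kay, puc and Jra in the 15 polyA+ libraries (y axis, CPM) against the share of all counts of the library on genes with over 5000 bp of exon (x axis, percent), coloured by temperature. The 3 libraries at 7.56% or more hold the 3 highest values of kay and of puc, while Jra there lies at 30.3 to 32.6 CPM.

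The 3 polyA+ libraries in which kay and puc were high also held the most counts on long genes. Genes with over 5000 bp of exon took 7.56% of the counts in replicate 1 of 4°C, 10.0% in replicate 3 of 10°C and 8.30% in replicate 3 of 34°C, against 2.82% to 5.87% in the other 12 polyA+ libraries and 18.6% to 23.9% in rRNA− libraries. Atf3 had 10.4 CPM in replicate 1 of 4°C and at most 3.02 in any other polyA+ library. In the rRNA− libraries of the same temperature and number, kay had 215, 216 and 316 CPM, each below at least 1 other library of its group. There, puc had 66.9, 51.6 and 51.2 CPM, each the highest of its group, and Atf3 with 72.3 CPM at 4°C was also the highest of its group. The 3 polyA+ libraries were the highest for kay and puc, and leaving them out was decided after the data were seen. Lower values without them were therefore fixed in advance. Without these 3 libraries, the log2 fold change of kay was -0.49 for 10°C and -0.02 for 34°C. That of puc was 0.06 for 4°C, -2.25 for 10°C (edgeR adjusted p = 0.060) and -0.60 for 34°C. At 10°C the remaining puc libraries were those at 1.30 CPM. Replicate 3 of the temperature alone decided the sign for kay at 10°C (-0.48 without it) and for puc at 10°C (-2.24) and 34°C (-0.55), whereas kay at 34°C was at 0.02 without it. The part of the share on long genes in these values was not tested.

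Hr38, sr and Atf3 were near the detection limit in polyA+ libraries. Hr38 had 0 to 5 counts per library, sr 0 to 11 and Atf3 0 to 52. A count of 0 allows up to 3 counts, for counting error only. Hr38 was at or under 3 counts in every library at 10°C, 25°C and 34°C, and sr in every library at 37°C (0 to 1 counts), so no fold change is given between such groups. The full counts, which were not reduced to the depth of the rRNA− libraries, gave Hr38 0 to 25, sr 2 to 55 and Atf3 1 to 307 counts per polyA+ library.

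At 37°C the direction of kay in CPM differed between the library types. All 3 libraries were above the controls in rRNA− and all 3 below them in polyA+ libraries, while on the TPM scale the rRNA− libraries overlapped the controls. Of all genes in rRNA− libraries, 27.8% had no overlap in CPM between 37°C and 25°C, and the share was not computed for polyA+ libraries. The difference of the responses was 0.96 on the log2 scale (95% interval -0.40 to 2.31, edgeR interaction test, adjusted p = 0.46), so it was not resolved. In the interaction test over all 30 libraries and 10103 genes, 0 of 6 members were called at 4°C, 10°C, 34°C or 37°C, where 0%, 0%, 0.0099% and 0.0099% of all genes were called. The values under an unadjusted p of 0.05 were those of sr at 37°C (2.42, adjusted p = 0.30) and Atf3 at 4°C (-1.84, adjusted p = 1). Both rest on polyA+ groups with few counts or on the single high library of Atf3.

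No gene of the upstream pathway was called either. Of 16 genes upstream of or within the JNK cascade, from the ligand egr and its receptors grnd and wgn to the kinases Tak1, slpr, hep and bsk, 16 were tested and 0 were called at any temperature in either library type. In rRNA− libraries, 0, 5, 3 and 2 of the 16 had an unadjusted p under 0.05 from 4°C to 37°C, and 0, 0, 0 and 3 in polyA+ libraries, beside the shares of all genes given above. The smallest was that of slpr, a mixed-lineage kinase at the head of the cascade, at 10°C in rRNA− libraries, with a log2 fold change of -0.71 that passed the adjusted threshold (edgeR adjusted p = 0.012) but not 2-fold, and was singled out after its value was seen. Their median log2 fold change in rRNA− libraries lay between -0.25 at 10°C and -0.10 at 4°C, and their values there ran from -0.92 to 0.29. Of 6 genes of the parallel p38 branch, 0 were called, and 1 in each library type had an unadjusted p under 0.05, both at 37°C. Of 6 listed genes linked to tendon cells and to sr, 5 could be matched and 0 were called, with at most 2 of 5 under an unadjusted p of 0.05 in any comparison. Among 11 genes known as JNK targets, 8 passed the filter in each library type and 2 were called. Ets21C, an Ets-family transcription factor induced by stress, had 3.97 to 16.1 CPM at 10°C against 1.59 to 3.33 at 25°C in rRNA− libraries (log2 fold change 1.88 ± 0.51, edgeR adjusted p = 0.041). It had 4.58 to 11.3 CPM at 37°C against 0.678 to 1.70 in polyA+ libraries (2.45 ± 0.62, adjusted p = 0.046). These groups did not overlap, but the controls held only 8 to 17 and 4 to 7 counts. The pro-apoptotic gene hid fell at 37°C in rRNA− libraries, from 39.5 ± 7.22 to 16.4 ± 1.43 CPM (SD, n = 3), by 1.27 ± 0.21 on the log2 scale (adjusted p = 0.0024). Its log2 fold change at 10°C, -0.98 with an adjusted p of 0.016, was just short of 2-fold. The call of Ets21C at 10°C was lost without replicate 1 or 3 of 10°C or any 1 library of 25°C, with a log2 fold change of 1.17 without replicate 3 of 10°C. That at 37°C in polyA+ libraries was lost without replicate 1 or 2 of 37°C or any 1 library of 25°C, with values between 1.93 and 2.69.

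Among 14 other basic leucine zipper factors, 13 passed the filter in rRNA− libraries. Vri, a repressor in the circadian clock, rose at 4°C from 89.0 ± 8.09 to 181 ± 5.66 CPM (1.02 ± 0.14 on the log2 scale, edgeR adjusted p = 0.015). It was the only gene of all 9718 called at that temperature. At 10°C vri had 162 ± 21.1 CPM, and its log2 fold change of 0.86 passed the adjusted threshold (edgeR adjusted p = 0.0077) but not 2-fold. Pdp1, which acts opposite to vri in the clock, fell at 10°C by 1.11 ± 0.22 (adjusted p = 0.014), from 182 ± 31.2 to 84.6 ± 5.12 CPM. The remaining factors, among them crc (the fly ATF4), Xbp1 and cnc (the fly Nrf2), were not called. At 4°C the call of vri was lost without any 1 library of 25°C or without replicate 1 or 2 of 4°C, where the log2 fold change stayed between 0.95 and 1.07. That of Pdp1 was lost without replicate 1 or 3 of 10°C or replicate 2 or 3 of 25°C, with values between -1.08 and -0.996.

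The genes whose log2 CPM ran most closely with each member over the 15 rRNA− libraries are given as a description, since the libraries share temperature groups and composition. For kay they were drongo (r = 0.95), Kank (0.92) and CG10077 (0.90), of which CG10077 kept a correlation of 0.84 over the 15 polyA+ libraries while drongo had 0.47 and Kank 0.06. For puc they were cass (0.89), CG4049 (0.89) and Rrp6 (0.87), with 0.87, 0.93 and 0.94 in polyA+ libraries. For Jra they were CG14711 (0.91), mtSSB (0.90) and Synd (0.88), for Atf3 Arl8 (0.95), nrm (0.92) and qvr (0.92), for sr kek2 (0.80), dcma (0.79) and lncRNA:CR43452 (0.77), and for Hr38 CG16743 (0.77), RpL37A (0.76) and plu (0.74). Members were left out of this ranking, so none could be listed for another. Between members, the Pearson correlation in rRNA− libraries ran from -0.54 for kay with Jra to 0.43 for Jra with puc. These values lay below the lowest listed one, 0.74 for plu with Hr38. In polyA+ libraries kay and puc had 0.81.

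In the dm6 annotation of Ensembl release 115, Hr38 (FBgn0014859) lies on the minus strand of 2L from 20683462 to 20714588, with up to 6 exons. The next genes are on 3R, all on the plus strand, with sr (FBgn0003499) from 18090803 to 18135583, kay (FBgn0001297) from 29765995 to 29794113 and puc (FBgn0243512) from 8105332 to 8122294. Jra (FBgn0001291) is the compact gene of the set, on the plus strand of 2R from 10096480 to 10098556. Atf3 (FBgn0028550) lies on the minus strand of X from 1242740 to 1275284. The exons of Hr38 share 168 bp with those of CG2617 and the exons of Jra 39 bp with those of RpLP0-like, both on the opposite strand. Whether strand was used in the counting is not given in the sources used here, so reads of those stretches may belong to either gene.

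Depth and composition of the libraries bear on all of these values. Equalized totals were 2188773 to 5925256 counts per polyA+ library and 2067003 to 5541348 per rRNA− library. The summed CPM of the yolk protein genes Yp1, Yp2 and Yp3, markers of the female fat body and ovary, was 40039 to 45093 at 37°C against 21772 to 25400 at 25°C in rRNA− libraries, without overlap. In polyA+ libraries the 9 chorion genes summed to 13.2 CPM in the lowest and 22608 in the highest library at 37°C. Hemocyte markers (Hml, NimC1, eater and Col4a1) summed to 1146 to 1610 CPM at 37°C against 905 to 1355 at 25°C in rRNA− libraries. The 9 male markers summed to at most 1.35 CPM in any library, and the part of these tissues in the levels of the 6 genes was not tested.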

How the data were processed

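Per the labels and methods, reads were aligned to dm6 with STAR 2.7.7a and quantified with Salmon 1.4.0; which of these gave the gene counts is not given in the sources used here. The authors deposited whole-number read counts, not normalized. In the equalized counts, used here, rRNA reads had been removed, polyA+ reads trimmed to 85 bp and drawn down to the rRNA− depth of the pool. The full counts served as an alternative, and 15 columns of longer polyA+ reads were not used. The 6 genes and all gene lists were chosen with earlier results of these data known, and 101 of 102 listed genes were matched by symbol.

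The counts entered quasi-likelihood tests of edgeR 4.0.16 (limma 3.58.1, R 4.3.3), with TMM, filterByExpr and robust fits over the 15 libraries of a type. The difference between types used 10 groups over 30 libraries. Standard errors and intervals were approximated from the F statistic. Alternatives were DESeq2 1.42.0, RLE scaling, no filter, 6 libraries, 1 fit of 30 libraries, a replicate block, full counts, left-out libraries and, chosen after seeing the data, library totals without scaling and leaving out the 3 polyA+ libraries with the highest long-gene share. Another alternative kept only the polyA+ libraries with over 0.0096% of their full counts on histone genes. Correlations used log2 CPM with a prior count of 2. TPM used exonic lengths of Ensembl release 115. Procedures were tested on simulated data, and plots drawn with matplotlib 3.10.9. Besides the 6 genes, listed genes called in any comparison with 25°C, Hsp68 and the 3 best-correlated genes of each member were named. The labels give the replicates as biological, and they are treated here as separate pools of flies.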

Additional observations from a re-analysis of the deposited data

How the results depend on the processing

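The count of members called was 0 in the main test of all 16 comparisons and in 219 of 220 repeats under the alternatives, leave-one-out repeats included (0 to 0). The exception was 1 called member at 37°C in polyA+ libraries in the fit of all 30 libraries, sr with a log2 fold change of -2.64 (edgeR adjusted p = 0.043), at 0 to 1 counts per library at 37°C.

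With the replicate number as a block, 0 members were called in every comparison, and kay at 34°C had 0.42 (edgeR adjusted p = 0.079). The numbers did not pair the temperatures, since the deviations of same-numbered libraries had a median correlation of -0.01 in rRNA− and -0.02 in polyA+ libraries. Under the block, the calls of vri at 4°C (adjusted p = 0.053), Hsp27 at 10°C (0.067) and Ets21C and Fst at 37°C in polyA+ libraries (0.070 and 0.073) were lost. PolyA+ and rRNA− libraries of the same temperature and number had a median correlation of 0.15 (9 of 15 pairs above 0.1), and the interaction test with the pool as a block also called 0 members.

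Of the 36 member comparisons with 25°C, 16 changed sign under some alternative, 9 in polyA+ and 7 in rRNA− libraries. All were uncalled, and in the main test none was above 0.77 in size, or 0.22 among those in rRNA− libraries. The 3 polyA+ libraries of highest long-gene share were also the highest for kay and puc, so lower values without them were fixed in advance. Without them, kay was at -0.49 (10°C) and -0.023 (34°C) and puc at -2.25 (10°C) and -0.60 (34°C) in polyA+ libraries. Without replicate 3 of the temperature, kay was at -0.48 and puc at -2.24 at 10°C, and puc at -0.55 at 34°C, while the highest values without 1 library were 0.91 for kay and 1.33 for puc at 10°C and 0.82 for puc at 34°C. For puc at 34°C the replicate block gave -0.052. The libraries of high histone share alone gave -0.41, with replicate 1 as the only library of 34°C. The cause was not tested.

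Low counts limited Hr38 and sr in both library types and Atf3 in polyA+ libraries.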
